A study of Mus musculus with 10 samples.

Results

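The genes described here encode subunits of respiratory complex I (NADH:ubiquinone oxidoreductase), the first enzyme of the mitochondrial respiratory chain. They are 36 nuclear genes with symbols beginning in Ndufa, Ndufab, Ndufb, Ndufc, Ndufs or Ndufv, chosen by name with earlier results of these data known. On the array 18193 genes have a probe set of their own. Of the 36, 34 were measured by 76 probe sets that name the member alone, and each gene takes its value from its brightest probe set (by mean log2(intensity + 16) over the 10 arrays). Ndufa11 and Ndufs6 were named only by probe sets shared with another gene, so they have no value here. Of the 34 measured genes, 33 were among the 10916 genes tested after the dimmest 40% of genes were left out. The exception was Ndufb4, whose values come from the same test without that filter.

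The samples were 10 mice of strain DBA1/lacJ, 5 labelled wild-type (WT) and 5 labelled as mPGES-1 knockout (KO). All 10 were given lipopolysaccharide (LPS), a bacterial cell wall component that causes fever, at 120 µg/kg into the peritoneum, and the brains were taken 5 h later. The preoptic region of the hypothalamus, which controls body temperature, was isolated with a laser from tissue sections, and its RNA went through 2 rounds of amplification before it was put on an array, 1 for each mouse. Every mouse had LPS and none without it was analysed here, so the effect of LPS itself was not measured, and the labels give neither age nor sex nor how the knockout was made. mPGES-1, encoded by Ptges, is the inducible enzyme that makes prostaglandin E2 in inflammation.

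Complex I takes electrons from NADH and passes them through a flavin and a chain of iron-sulfur clusters to ubiquinone, and it uses the energy to pump protons across the inner mitochondrial membrane. Its catalytic centre is built from core subunits that have bacterial relatives, and a larger number of accessory subunits surrounds and stabilises them. Neurons depend on this pathway for most of their ATP. The letters of the symbols follow old preparations of the enzyme: V for the flavoprotein, S for the iron-sulfur fragment and A, B and C for the remaining fractions. Ndufa4 keeps its symbol although its product is now assigned to cytochrome c oxidase, and Ndufab1 encodes the mitochondrial acyl carrier protein, which also serves fatty acid synthesis.

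The arrays and labels were checked before the members were read. Each array had been scaled to the same trimmed mean intensity, but the median probe set intensity was 37.04 ± 4.82 (SD, n = 5) on the WT arrays and 27.6 ± 2.00 (SD, n = 5) on the KO arrays, and the 99th percentile was 9044 ± 279 and 7958 ± 292 (SD, n = 5 each). WT replicates 2 and 5 and KO replicate 3 lacked the poly-A spike-in signal seen on the other 7 arrays. The hybridization controls, which are not mouse RNA, had a mean log2 value of 11.71 ± 0.58 (SD, n = 5) on the WT arrays and 10.86 ± 0.38 (SD, n = 5) on the KO arrays, with ranges that overlapped (10.79 to 12.19 and 10.19 to 11.12), so they were lower on the KO arrays on average, as the bright complex I genes were. The Ptges transcript was not lower on the KO arrays: probe set 1439747_at gave 49.96 ± 24.5 (SD, n = 5) against 4.54 ± 3.09 (SD, n = 5) on the WT arrays (exact permutation test, two-sided, p = 0.0079, which is the minimum for 5 against 5 arrays, and 0.024 adjusted over the 3 Ptges probe sets). The other 2, 1449449_at and 1449450_at, gave 40.2 and 37.3 on the KO arrays against 13.4 and 30.7 on the WT arrays (exact permutation test, adjusted p = 0.107 and 0.548). All 3 thus lay higher on the KO arrays. They were dim on the WT arrays, with means below the median intensity of those arrays, while their KO means lay above that of the KO arrays. The labels do not say whether the probe sets lie in the deleted part of the gene, so this check is weak. Every direction below therefore rests on the labels, and the groups are called WT and KO as labelled. Of 13 marker genes of preoptic and hypothalamic neurons 11 were above the filter on dim genes, and their summed intensity was 6251 to 8277 on the WT arrays and 6673 to 9453 on the KO arrays.

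Complex I genes as deposited were lower on the KO arrays where their signal was bright, and mixed where it was not. Of the 33 tested members 24 lay lower and 9 higher, or 72.7% lower against 52.2% of all tested genes. The test was limma on log2(intensity + 16), KO minus WT, with Benjamini-Hochberg adjustment over all 10916 genes. Of the members 2 fell, Ndufv3 and Ndufb11, and 0 rose at an adjusted p below 0.05, against 12 calls (0.11%) among all tested genes, of which 9 (0.0824%) were lower. The KO arrays lay wholly below the WT arrays in 10 of 33 members (30.3%) and wholly above them in 0, where the shares over all tested genes were 3.13% and 1.88%. At an unadjusted p below 0.05 there were 11 members lower and 1 higher, against 10.1% and 7.95% of all tested genes. The same 10 members had a limma adjusted p below 0.1 (2.54% of all tested genes, KO lower). The median difference of the 34 measured members was -0.18, beside -0.02 over all tested genes. Scaling changed this picture: with each array centred on its own median the median of all tested genes moved to 0.26 and that of the members to 0.10, 14 of the 34 members lay lower and 20 higher, and the 983 limma calls among all tested genes split into 952 higher and 31 lower. Under that centring Ndufv3 and Ndufb11 were still lower and Ndufs3 passed as higher.

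**Figure D1:**
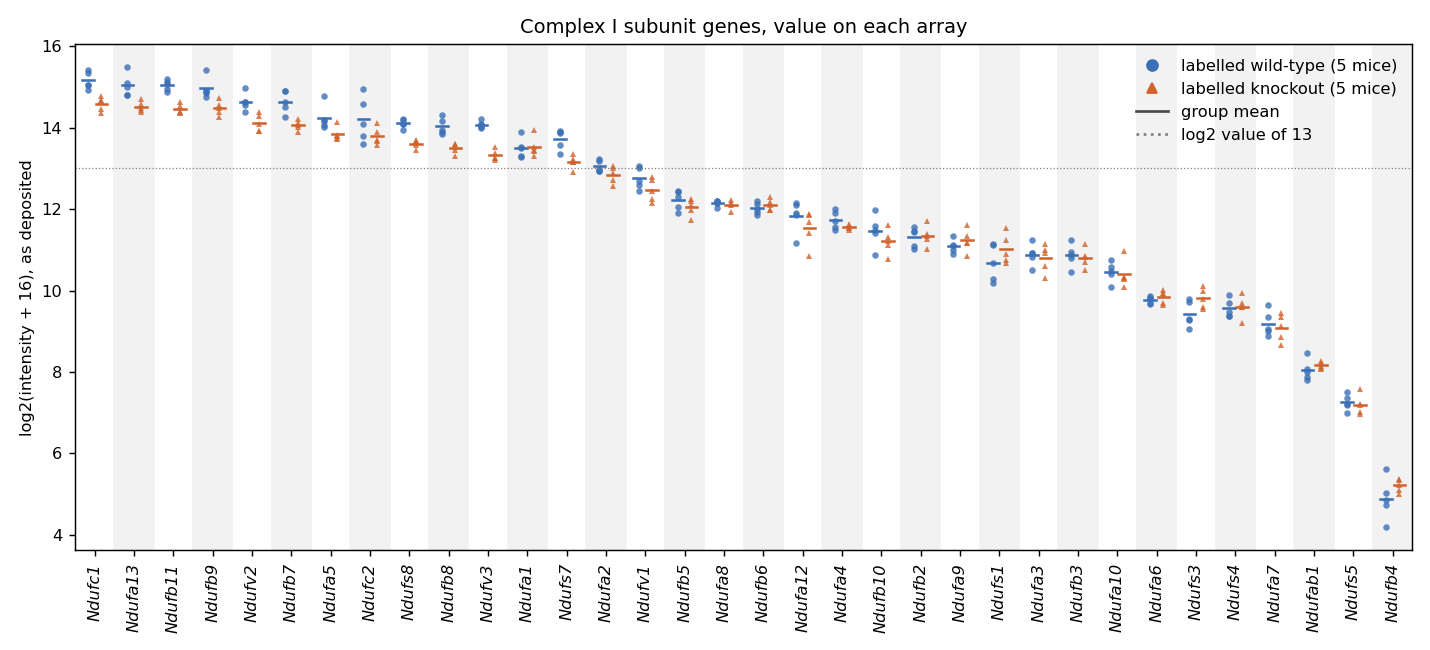
Each point is 1 array, with log2(intensity + 16) on the vertical axis and the 34 measured genes in order of their mean signal on the horizontal axis. Blue circles are the 5 WT mice, orange triangles the 5 KO mice, short bars the group means and the dotted line a log2 value of 13. The groups do not overlap in 10 of the 13 genes above the line and overlap in all 21 below it. Over all tested genes the KO arrays lie wholly below the WT arrays in 25.6% of 301 genes above 13. At 13 or less they do so in 2.5% of 10615 genes.

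When the 10 arrays were given the same distribution of values by quantile normalization, 0 members and 0 of 10916 genes passed the same limma threshold (percent called 0). At an unadjusted p below 0.05 there were 1674 genes in all (7.33% lower and 8.01% higher), and 3 members lower and 1 higher. Of the 33 tested members 23 lay lower (69.7%, against 48.4% of all tested genes) and 10 higher, and the median of the 34 was -0.04 beside 0.01 over all tested genes. The KO arrays then lay wholly below the WT arrays in 1 member, Ndufv3, or 3.03% of those tested, against 2.23% of all tested genes, and wholly above them in 0, against 1.72%. Ndufv3 was also the only member with a limma adjusted p below 0.1 (0.137% of all tested genes, KO lower).

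**Figure D2:**
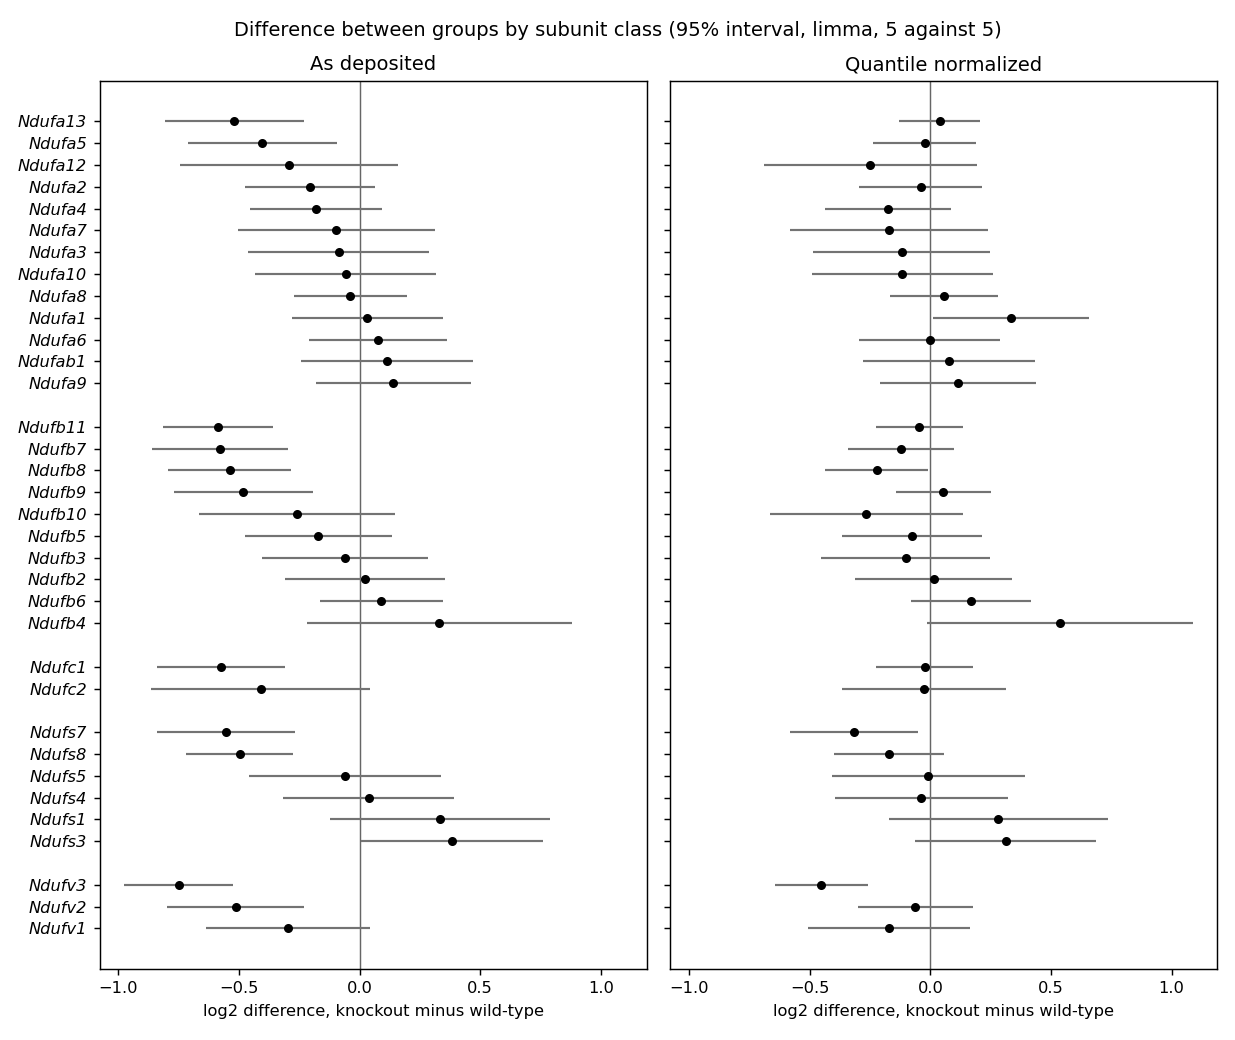
Points are log2 differences (KO minus WT) of the 34 measured genes and lines their 95% intervals from limma, 5 against 5 arrays, as deposited on the left and quantile normalized on the right. Genes are grouped by the letter of their symbol (a, b, c, s, v). As deposited 12 intervals exclude 0, 11 of them on the lower side. Of all tested genes 10.1% do so on the lower side and 7.95% on the higher side. After quantile normalization 4 do, those of Ndufv3, Ndufs7 and Ndufb8 on the lower side and that of Ndufa1 on the higher side. The shares of all tested genes are then 7.33% and 8.01%.

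Ndufv3, an accessory subunit of the NADH-oxidising arm, had the largest difference. The WT arrays (replicates 1 to 5) gave intensities of 17038, 18960, 16335, 17446 and 16542. The KO arrays gave 11694, 9466, 9811, 10600 and 9833. The groups were far apart, the highest KO array staying well under the lowest WT array. The WT level was 1.68 times the KO level (log2 difference -0.75, SE 0.11, 95% interval -0.98 to -0.52, limma adjusted p = 0.035). After quantile normalization the difference was -0.45 (SE 0.09, interval -0.65 to -0.26, limma adjusted p = 0.086), and the groups still did not overlap. Within each array, Ndufv3 ranked at the median percentile 99.3 of all genes on the WT arrays and 98.9 on the KO arrays. Only 1 probe set measures this gene, so no other probe set can be set beside it. The limma call was lost without WT replicate 1, 2 or 4 or KO replicate 2, 3 or 5 (adjusted p between 0.053 and 0.123), while the difference stayed between -0.80 and -0.71 without any 1 array. It was also lost with the spike-in difference as a block (limma adjusted p = 0.054).

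Ndufb11, an X-linked accessory subunit of the membrane arm, was the other member that fell. On the WT arrays its intensities were 31579, 37401, 35725, 34227 and 30112, and on the KO arrays 23535, 21015, 21290, 25434 and 21221. The means were 33809 ± 2974 and 22499 ± 1935 (SD, n = 5 each; log2 difference -0.59, SE 0.11, interval -0.81 to -0.36, limma adjusted p = 0.0499, just inside the threshold). The groups did not overlap as deposited, but after quantile normalization they did, with a difference of -0.05 (SE 0.09, interval -0.23 to 0.14, limma adjusted p = 0.841). A second bright probe set, 1455911_x_at, lay at -0.51 as deposited, and the dimmer 1416057_at at -0.15. The limma call held among the settings that leave out 1 array only without WT replicate 5 (adjusted p = 0.034).

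The core subunits differed among themselves. Ndufs7, which carries the last iron-sulfur cluster before ubiquinone, gave 10520, 12234, 15105, 15395 and 15022 on the WT arrays and 10512, 9189, 9634, 9188 and 7687 on the KO arrays. The groups met without overlapping, since WT replicate 1 and KO replicate 1 were almost equal. Its difference was -0.55 (SE 0.13, limma adjusted p = 0.068) as deposited and -0.32 (SE 0.12, limma adjusted p = 0.249) after quantile normalization. Ndufs8, which holds iron-sulfur clusters beside it, gave 15795, 17564, 18897, 17303 and 18611 on the WT arrays and 13092, 11274, 12598, 12088 and 13352 on the KO arrays, again without overlap. It was at -0.50 (SE 0.10, limma adjusted p = 0.055), and at -0.17 after quantile normalization. Both bright Ndufs8 probe sets have names ending in _x_at, which marks probes that can bind related sequences, and the brightest of the others (1423907_a_at) was at 0.01. Ndufv2, an iron-sulfur subunit of the flavoprotein, gave 25203, 32028, 21294, 25338 and 23954 against 21254, 15392, 19885, 17294 and 15573 on the KO arrays. There the lowest WT array and the highest KO array nearly touched, and the difference was -0.51 (SE 0.13, limma adjusted p = 0.073), or -0.06 after quantile normalization. Ndufv1, which binds NADH and the flavin, gave 6588, 5571, 6197, 8245 and 8475 against 6730, 4816, 7075, 4495 and 5524. Its groups overlapped, at -0.30 (SE 0.16, limma adjusted p = 0.346). By their brightest probe sets all 3 V genes lay lower, with a median of -0.51 as deposited and -0.17 after quantile normalization. As deposited, a dimmer probe set lay higher in Ndufv1 (1415967_at, 0.39) and in Ndufv2 (1428179_at, 0.15). A further bright one lay lower in each (1456015_x_at, -0.35, and 1438159_x_at, -0.43).

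The other 2 core subunits lay on the opposite side. Ndufs3, which helps to form the ubiquinone-reducing module, gave 607, 614, 517, 870 and 825 on the WT arrays and 764, 725, 1095, 1008 and 876 on the KO arrays. The ranges overlapped, and the difference was 0.38 (SE 0.18, interval 0.0054 to 0.76, limma adjusted p = 0.269), or 0.31 after quantile normalization. Ndufs1, the largest subunit of the NADH-oxidising arm with several iron-sulfur clusters, gave 2241, 1154, 1231, 2208 and 1633 on the WT arrays and 2415, 1632, 2947, 1879 and 1693 on the KO arrays. WT and KO arrays overlapped, with KO replicates 1 and 3 above every WT array, and the difference was 0.33 (SE 0.22, interval -0.12 to 0.79, limma adjusted p = 0.433). Of the 6 core subunits measured, 4 lay lower and 2 higher, both as deposited and after quantile normalization, with medians of -0.40 and -0.12 and with 0 past the limma threshold. As deposited 4 were at an unadjusted limma p below 0.05, 3 lower and 1 higher, against 10.1% and 7.95% of all tested genes.

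Among the accessory S subunits, differences were small. Ndufs4, whose loss causes encephalopathy in mice and in people, ranged from 643 to 937 on the WT arrays (median 691) and from 570 to 961 on the KO arrays (median 760), at 0.04 (SE 0.17). Ndufs5 ranged from 112 to 165 (median 131) and from 109 to 176 (median 129), at -0.06 (SE 0.19). Both genes' groups overlapped almost wholly. Over the 6 measured S genes, core ones included, the median difference was -0.01 as deposited and -0.02 after quantile normalization.

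The 2 C subunits sit in the membrane arm. Ndufc1 gave 34073, 41587, 31300, 43931 and 33914 on the WT arrays and 28020, 22640, 26255, 25837 and 20903 on the KO arrays, with every KO array lower. Its difference of -0.58 (SE 0.13, limma adjusted p = 0.055) became -0.02 (SE 0.09) after quantile normalization. Ndufc2 gave 14198, 31405, 24677, 17435 and 12383 against 13294, 15230, 13041, 17845 and 12172. WT replicates 2 and 3 were high there and the other 3 WT arrays lay among the KO arrays, at -0.41 (SE 0.21, limma adjusted p = 0.327).

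Of the 10 B subunits, which form the outer membrane arm, 7 lay lower and 3 higher as deposited, with a median of -0.22, and the median after quantile normalization was -0.06. Ndufb7 gave 19546, 30720, 25488, 30426 and 23188 on the WT arrays and 18872, 15299, 17230, 17723 and 16436 on the KO arrays. Ndufb8 gave 14699, 20170, 15317, 18363 and 15751 against 12306, 10073, 11755, 12434 and 11191. Ndufb9 gave 27594, 43880, 29690, 30734 and 30776 against 27248, 21444, 24260, 22883 and 19666. In all 3 genes every KO array was below every WT array, narrowly so in Ndufb7 and Ndufb9. Their differences were -0.58, -0.54 and -0.48 (SE 0.13, 0.12 and 0.14), with limma adjusted p of 0.058, 0.057 and 0.091. After quantile normalization they were -0.12, -0.22 and 0.05, and each gene's groups overlapped. Ndufb10, dimmer than these, gave 1868, 3984, 2836, 3080 and 2687 on the WT arrays and 3087, 2383, 2519, 2193 and 1744 on the KO arrays. WT replicate 1 was among its lowest arrays and KO replicate 1 among its highest, so the groups overlapped, at -0.26 (SE 0.19) as deposited and -0.27 (SE 0.19) after quantile normalization. Of the remaining B subunits Ndufb5 was at -0.17 (SE 0.14), Ndufb3 at -0.06 (SE 0.16), Ndufb2 at 0.02 (SE 0.16) and Ndufb6 at 0.09 (SE 0.12). Ndufb4 is read here by 1 dim probe set, whose intensities of 11, 13, 2, 16 and 33 on the WT arrays and 16, 22, 18, 25 and 25 on the KO arrays were at the level of background.

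Of the 13 measured A subunits 9 lay lower and 4 higher, and 0 passed the limma threshold. At an unadjusted limma p below 0.05 there were 2, both lower, against 10.1% of all tested genes lower. Ndufa13, also known as GRIM-19, an accessory subunit of the membrane arm, gave 28446, 46041, 32866, 35111 and 28339 on the WT arrays and 24578, 22085, 23002, 26573 and 21230 on the KO arrays, without overlap. Its difference was -0.52 (SE 0.14, limma adjusted p = 0.075) as deposited and turned to 0.04 (SE 0.08) after quantile normalization. Ndufa5, an accessory subunit of the matrix arm, gave 16621, 27947, 18802, 18367 and 17277 against 18103, 14214, 13746, 14367 and 13424, with KO replicate 1 among the WT arrays. It was at -0.40 (SE 0.15, limma adjusted p = 0.159), or -0.02 after quantile normalization.

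Ndufa1, an X-linked accessory subunit of the membrane arm, was the 1 member above a log2 level of 13 whose difference was not below 0. It gave 11740, 15244, 11544, 10162 and 9856 on the WT arrays and 11204, 11009, 10055, 11804 and 15740 on the KO arrays, where KO replicate 5 was the highest of all. The difference was 0.03 (SE 0.15, interval -0.28 to 0.34, limma adjusted p = 0.936) as deposited and 0.33 (SE 0.15, interval 0.01 to 0.66, limma adjusted p = 0.309) after quantile normalization. As deposited it was -0.07 without KO replicate 5.

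The other A subunits were dimmer, and each overlapped between groups. The accessory genes Ndufa12, Ndufa2, Ndufa7 and Ndufa3 were at -0.29 (SE 0.21), -0.21 (SE 0.13), -0.10 (SE 0.19) and -0.09 (SE 0.18), and Ndufa10 and Ndufa8 at -0.06 (SE 0.18) and -0.04 (SE 0.11). Ndufa6 was at 0.07 (SE 0.13), Ndufab1 at 0.11 (SE 0.17) and Ndufa9, which binds a nucleotide cofactor, at 0.14 (SE 0.15). Ndufa4, the subunit now placed in cytochrome c oxidase, was at -0.18 (SE 0.13).

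The difference of a member as deposited went with how bright its probe set was. A probe set's brightness depends on its probes as well as on the transcript, so it is used here to describe the arrays and not to order genes by expression. Across the 34 members Pearson r between mean log2 level and difference was -0.79 and Spearman rho -0.80, and after quantile normalization they were -0.39 and -0.19. Over all 10916 tested genes they were 0.03 and 0.12 as deposited, and -0.04 and -0.04 after quantile normalization. Those genes spanned other levels, with a median level of 8.16 against 12.1 for the members. The median difference of all tested genes as deposited was -0.08 from the filter to 8 and 0.08 from 8 to 10. It was 0.02 from 10 to 12, -0.11 from 12 to 13, -0.30 from 13 to 14 and -0.51 above 14. The genes share the same 10 arrays, so these are descriptions. Of the 13 members with a mean log2 level above 13, a bound chosen after the values were seen, 12 lay lower, with a median of -0.52. Of the 21 at 13 or less, 12 lay lower, with a median of -0.06.

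Other bright genes were also lower on the KO arrays. Of all 301 tested genes above 13, complex I included, 286 lay lower, with a median of -0.37. In 77 of the 301 (25.6%) the KO arrays lay wholly below the WT arrays, and in 10 of the 13 complex I genes (76.9%). Past the limma threshold as lower were 6 of the 301 genes, 2 of them complex I genes. Above a level of 14, all 104 tested genes lay lower, with a median of -0.51, and the 7 complex I genes there had a median of -0.52. Within that band of 104 genes Ndufb11 was the 34th lowest, Ndufb7 the 36th, Ndufc1 the 38th, Ndufa13 the 49th, Ndufv2 the 51st, Ndufb9 the 60th and Ndufa5 the 78th. Between 13 and 14 the median of 197 tested genes was -0.30, and that of the 6 complex I genes -0.52. There Ndufv3 had the lowest difference of the 197 genes, Ndufs7 the 11th lowest, Ndufb8 the 13th lowest and Ndufs8 the 22nd lowest and Ndufc2 the 47th lowest, and Ndufa1 was the 12th highest. After quantile normalization Ndufv3 was the 3rd lowest of these 197 genes and Ndufs7 the 6th lowest.

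**Figure D3:**
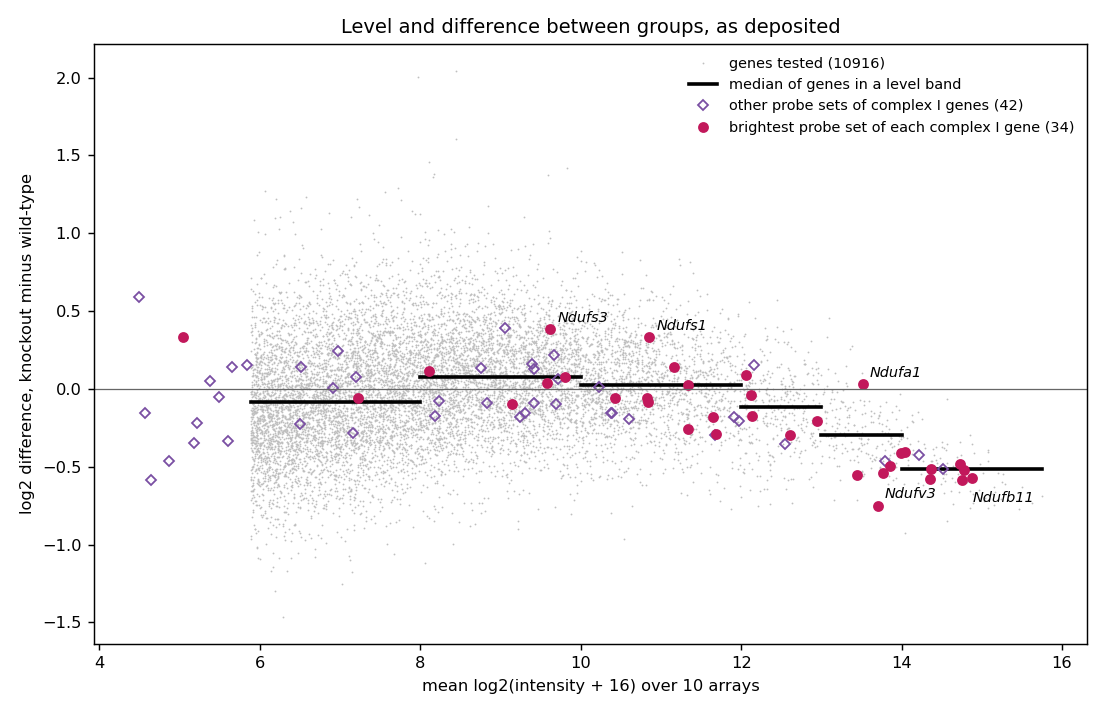
The horizontal axis is the mean log2(intensity + 16) over 10 arrays and the vertical axis the log2 difference, KO minus WT, as deposited. Grey points are the 10916 tested genes, black bars the median of the tested genes in 6 bands of level, filled circles the probe set used for each of 34 complex I genes and open diamonds the other 42 probe sets of these genes. The black bars drop to -0.30 between 13 and 14 and to -0.51 above 14, and the 7 complex I genes above 14 have a median of -0.52. Of the 6 between 13 and 14, 5 lie below that band's bar, Ndufv3 lowest, and Ndufa1 lies above it.

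Probe sets of 1 gene can be set beside each other, since they read the same gene in the same RNA. They may read different transcripts or parts of a transcript, and the share of that in the differences below was not tested. In 15 members another probe set was above the filter and at least 2 log2 units dimmer than the brightest. Where several were, the brightest of them was compared. In 13 of the 15 the dimmer probe set lay above the brighter one in difference, against 51.0% of all 1990 genes with such a pair. The median was -0.41 for the bright and 0.0031 for the dimmer probe sets, and in 8 genes the signs were opposite. Ndufa5 was at -0.40 by 1417285_a_at and at 0.22 by 1417286_at. Ndufv2 was at -0.51 by 1452692_a_at and at 0.15 by 1428179_at, Ndufv1 at -0.30 by 1415966_a_at and at 0.39 by 1415967_at, and Ndufb9 at -0.48 by 1436803_a_at and at 0.13 by 1452184_at. A further bright probe set lay lower too in Ndufv2 (1438159_x_at, -0.43) and in Ndufv1 (1456015_x_at, -0.35). Ndufs7 was at -0.55 by 1424313_a_at and at -0.10 by 1451312_at, so its 2 probe sets kept a direction but not a size. After quantile normalization the medians were -0.06 for the bright and -0.05 for the dimmer probe sets. Split by the same bound of 13, the dimmer probe set lay higher in 9 of 9 members whose brightest was above it (medians -0.51 and -0.09), and in 195 of all 219 such genes (89.0%, medians -0.39 and 0.06). At 13 or less it lay higher in 4 of 6 members and in 46.3% of 1771 genes.

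The arrays showed the same split when the members were averaged. The mean log2 value of the 13 bright members was 14.41 ± 0.18 (SD, n = 5) on the WT arrays and 13.92 ± 0.10 (SD, n = 5) on the KO arrays, with a lowest WT array at 14.23 and a highest KO array at 14.05. That of the 21 others was 10.51 ± 0.10 and 10.49 ± 0.08, with ranges that overlapped throughout. After quantile normalization the 13 bright members were at 14.20 ± 0.06 and 14.12 ± 0.07, and the groups overlapped. WT replicate 2, which also had the highest maximum and the highest median intensity of the 10 arrays, held the highest value of 14 of 34 members. The lowest values fell most often on KO replicates 2, 5 and 3, in 10, 7 and 6 members. KO replicate 5 had the lowest maximum and the lowest median intensity. The part of these array differences in the members' values was not tested beyond the quantile normalization and the settings given in the closing section.

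**Figure D4:**
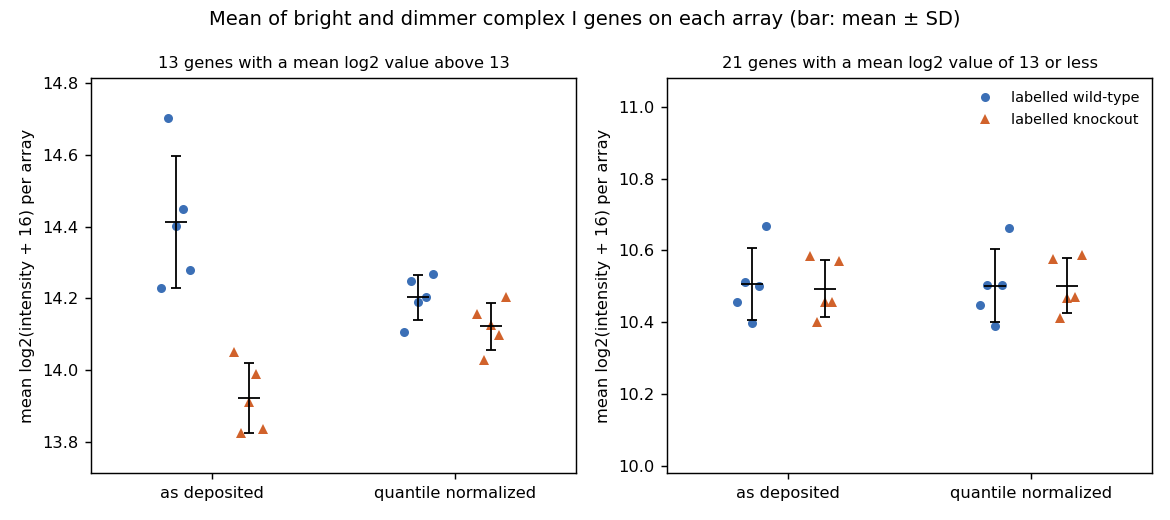
Points are the mean log2(intensity + 16) of complex I genes on each array, for the 13 genes above 13 on the left and the 21 others on the right, as deposited and quantile normalized. Circles are WT and triangles KO arrays, and bars are the group mean ± SD (n = 5 each), and both vertical axes span the same length. On the left the groups are apart as deposited (14.41 against 13.92) and overlap after normalization (14.20 against 14.12), and on the right they overlap in both.

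Sums of markers of some other cell types also differed between the groups as deposited. The summed intensity of 8 astrocyte markers was 50286 to 59476 on the WT arrays and 36007 to 46843 on the KO arrays, without overlap, and 6 of the 8 lay lower. That sum was carried by Gja1 (means of 29061 and 19773), Gfap (8282 and 4995) and Aldoc (8241 and 6754), and the median difference of the list was -0.06. In log2 difference Slc1a3 was at 0.16, Aldh1l1 at 0.0022, Aqp4 at -0.02, S100b at -0.04 and Slc1a2 at -0.08. Of 6 oligodendrocyte markers 4 lay lower, with sums of 46120 to 62998 against 31999 to 46759, most of it from Mbp (38520 and 27510) and Cnp (10346 and 8033). Mobp (3952 and 4230) and Cldn11 (550 and 574) lay higher. Of 8 microglia markers 6 lay lower, with sums of 7860 to 11473 against 5934 to 8211, but only 4 of the 8 were above the filter on dim genes and Csf1r (7973 and 5282) made up most of the sum. Of 6 endothelial markers 5 lay lower, with sums of 1170 to 2056 against 796 to 1304. Of 8 neuron markers 4 lay lower and 4 higher, at 17885 to 23269 against 17099 to 27976. Of 8 striatal markers 7 lay higher, at 1188 to 1869 against 1696 to 6246. The 6 choroid plexus and ependymal markers, 3 higher and 3 lower, summed to 567 to 1122 against 559 to 8976. Only 3 of these 6 were above the filter, and Ttr (475 and 2026) made up most of the mean KO sum of 2487. All these sums use values as deposited, where 286 of 301 tested genes above a log2 level of 13 lay lower on the KO arrays. Median differences as deposited and quantile normalized were -0.06 and -0.08 (astrocyte), -0.43 and -0.09 (oligodendrocyte) and -0.22 and -0.12 (microglia). They were -0.35 and -0.36 (endothelium), -0.02 and 0.09 (neuron), 1.08 and 1.11 (striatal) and -0.10 and 0.13 (choroid plexus and ependyma). The part of these markers in the complex I values was not tested. In tissue of this kind fewer cells of a type and less RNA per cell cannot be told apart.

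Genes that serve complex I without being part of it were set beside the members. Of 20 tested assembly factors, which build the enzyme and then leave it, 15 lay higher and 5 lower, with a median of 0.17, and 0 passed the limma threshold. The smallest p were those of Ndufaf3 at -0.61 (SE 0.24, limma adjusted p = 0.200) and Ndufaf6 at 0.43 (SE 0.19, limma adjusted p = 0.231). Of 12 regulators of mitochondrial biogenesis 9 lay higher and 3 lower, with a median of 0.10. They were led by Gabpa, a transcription factor of respiratory chain genes, at 0.63 (SE 0.17, limma adjusted p = 0.082), and by the coactivator gene Ppargc1a at 0.66 (SE 0.23, limma adjusted p = 0.147). Both lists were dim, with median levels of 7.84 and 7.54 against 12.1 for the members.

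Of 16 matrix enzymes of the citric acid cycle and pyruvate oxidation 7 lay higher and 9 lower (median -0.03), among them the citrate synthase gene Cs at -0.44 (SE 0.13, limma adjusted p = 0.0998) and Sucla2 at 0.32 (SE 0.12, limma adjusted p = 0.185). Of 16 import, channel and chaperone genes 7 lay higher and 9 lower (median -0.09), among them the outer membrane channel gene Vdac1 at -0.65 (SE 0.14, limma adjusted p = 0.055) and the prohibitin gene Phb2 at -0.52 (SE 0.14, limma adjusted p = 0.075). Of 7 genes for other routes of electrons to ubiquinone and for NADPH formation 6 lay higher (median 0.19), with Nnt at 0.71 (SE 0.34, limma adjusted p = 0.293) and Etfa at 0.31 (SE 0.16, limma adjusted p = 0.313). In each of these lists 0 genes passed. The other complex I genes with a probe set of their own, Ndufb1 and Ndufa4l2, were too dim for the test, at 0.09 (SE 0.33) and 0.06 (SE 0.33).

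The promoters of the members were read for 3 short motifs that bind factors known to drive respiratory chain genes. The windows run from 250 bases before to 50 bases after the start site in RefSeq (GRCm38.p6), and 33 of the 36 members had at least 1, giving 35 windows. On either strand, TGCGCA, the core of the NRF1 site, was in 11 of 35 windows (31.4%) against 7.76% of 32851 windows of all genes. ATGGCG, the core of a YY1 site, was in 12 (34.3%) against 8.93%, and CGGAAG, the core of an ETS site as bound by GABPA, was in 8 (22.9%) against 16.9%. The members' windows were also richer in G and C, at a median of 59% against 52.7%, and none of these shares was tested. Matches of different motifs were counted separately, whether or not they overlapped.

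Windows of 4 members, chosen after the values were seen, are printed because their values took different courses. Ndufv3 and Ndufs7 were lower as deposited and remained among the lowest after quantile normalization. Ndufb11 was lower as deposited and at -0.05, with overlapping groups, after quantile normalization. Ndufa1 was bright but not lower. The windows lie at chr17:31519865-31520164 on the plus strand, chr10:80249199-80249498 on the plus strand, chrX:20617570-20617869 on the minus strand and chrX:37191189-37191488 on the minus strand, in that order. Capitals mark a match to 1 of the 3 motifs.
Ndufv3: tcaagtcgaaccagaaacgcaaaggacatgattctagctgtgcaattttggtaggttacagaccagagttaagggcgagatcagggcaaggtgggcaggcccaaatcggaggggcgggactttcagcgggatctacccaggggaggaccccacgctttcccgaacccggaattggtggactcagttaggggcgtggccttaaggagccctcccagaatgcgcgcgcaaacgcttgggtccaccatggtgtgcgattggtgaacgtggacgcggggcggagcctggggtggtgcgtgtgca
Ndufs7: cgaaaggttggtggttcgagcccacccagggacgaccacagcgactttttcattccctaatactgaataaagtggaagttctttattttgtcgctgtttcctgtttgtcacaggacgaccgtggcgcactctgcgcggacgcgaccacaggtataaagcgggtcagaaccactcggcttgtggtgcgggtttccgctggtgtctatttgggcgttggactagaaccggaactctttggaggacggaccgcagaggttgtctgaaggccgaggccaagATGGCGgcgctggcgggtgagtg
Ndufb11: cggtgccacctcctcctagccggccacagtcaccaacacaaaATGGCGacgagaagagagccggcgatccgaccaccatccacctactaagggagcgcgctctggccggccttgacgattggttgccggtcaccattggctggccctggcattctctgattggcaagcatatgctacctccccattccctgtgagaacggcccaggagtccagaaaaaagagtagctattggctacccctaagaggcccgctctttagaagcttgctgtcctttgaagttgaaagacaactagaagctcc
Ndufa1: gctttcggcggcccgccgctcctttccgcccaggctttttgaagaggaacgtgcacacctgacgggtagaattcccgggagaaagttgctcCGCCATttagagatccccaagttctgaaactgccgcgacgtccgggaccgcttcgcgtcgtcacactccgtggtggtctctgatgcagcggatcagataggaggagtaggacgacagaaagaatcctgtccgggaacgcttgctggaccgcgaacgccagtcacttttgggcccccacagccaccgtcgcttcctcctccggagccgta
Ndufv3 had 0 matches in its window, and the other 3 each had 1 ATGGCG match, on the opposite strand in Ndufa1. In Ndufs7 it lay 27 bases after the first transcribed base, and in Ndufb11 and Ndufa1 it lay before the start site, at -208 and -159. A match is a description of the letters, and a missing match says only that these letters are not in this window.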

How the data were processed

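The values the authors deposited are linear intensities of probe sets, with 1 array per mouse, which came from GCOS, per the submitters' processing notes. No version or settings of GCOS are named in the sources used here. Leaving out the top and bottom 2% of values, all arrays have the same mean, 200.002, so only the scale of each array had been set and differences in the shape of the distributions remain. Probe sets were named from the platform annotation, and 34945 of 45101 named 1 gene. Each of 18193 genes was represented by its brightest probe set, whatever the ending of its name, and the dimmest 40% of genes (mean log2 of 5.89 or less) were left out.

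Values were tested as log2(intensity + 16), so folds of dim genes are understated, with limma 3.58.1 in R 4.3.3 (lmFit, eBayes with an intensity trend, genotype as the only term). Quantile normalization of the log2 values over all probe sets was run beside the values as deposited. Figures used matplotlib 3.10.9 in Python 3.11.15. The procedure was tested on simulated data. Every member is named, with a value for each array where the groups did not overlap or the difference was among the 3 largest in a direction. Of each other list the 2 genes of smallest p are named. The members and all lists were chosen with earlier results of these data known.

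The 10 arrays are separate mice and no 2 arrays shared more than 0.00443% of their values. The number of arrays limits the precision. Settings tried are in the closing section.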

Additional observations from a re-analysis of the deposited data

Results flagged for a closer look

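In 4 of the 68 groups of 5 arrays tested (34 genes in each of 2 groups), 1 array was far from the other 4, by the gap to its neighbour as a share of the whole range, and chance flags about 1 in 20 such groups. In Ndufa5, WT replicate 2 was at a log2 value of 14.77 with the others between 14.02 and 14.20 (share 0.763), and KO replicate 1 was at 14.15 with the others between 13.71 and 13.81 (share 0.773). In Ndufb9, WT replicate 2 was at 15.42 with the others between 14.75 and 14.91 (share 0.765). In Ndufa10, KO replicate 3 was at 10.97 with the others between 10.09 and 10.33 (share 0.723). WT replicate 2 is thus the high array in both bright genes concerned. Without WT replicate 2 the difference of Ndufa5 was -0.27 and that of Ndufb9 -0.37, against -0.40 and -0.48 with all arrays.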

How the results depend on the processing

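The 2 complex I calls depended on the processing. The count of members past the limma threshold was 0 after quantile normalization (also with the spike-in block or with _x_at probe sets used last), 0 with the replicate block, the spike-in block, the hybridization controls as a covariate or no intensity trend, and 0 within the arrays with and within those without spike-in signal. It was 1 with the mean of all probe sets, 1 with every gene tested, 5 with the dimmest 60% left out, 8 with array weights, 10 at an adjusted p below 0.1, and 0 to 2 without any 1 array. Over all genes it was 983 with median centring, 445 at an adjusted p below 0.1, 174 with array weights, 88 with the dimmest 60% left out, 19 with a pseudocount of 64, 3 with no filter, 1 with the mean of all probe sets, 1 with the replicate block, 0 under the other settings just named that gave 0 for the members, and 0 to 35 without any 1 array. The replicate numbers do not pair the arrays: deviations of same-numbered arrays correlated at -0.15 to 0.07, and the block was run only as a setting. The median of the members was -0.039 with quantile normalization, -0.028 with that and the spike-in block, and 0.10 with median centring. It was -0.057 within the 7 arrays that show the spike-in RNAs, where 20 members lay lower and 14 higher. Within the 3 arrays that lack them (WT replicates 2 and 5 and KO replicate 3) it was -0.48. Without any 1 array it ran from -0.21 to -0.13. By class, median centring gave 0.19 (a), 0.065 (b), -0.21 (c), 0.27 (s) and -0.23 (v). Quantile normalization gave -0.025 (c) and -0.17 (v), with the spike-in block -0.020 (c) and -0.14 (v), and the mean of all probe sets -0.26 (v). Without any 1 array the class medians ran from -0.16 to -0.035 (a), -0.28 to -0.13 (b), -0.58 to -0.38 (c), -0.065 to 0.062 (s) and -0.58 to -0.43 (v). Single members changed sign under these settings. With quantile normalization Ndufa13 was at 0.038, Ndufa6 at -0.0033, Ndufa8 at 0.056, Ndufb9 at 0.053 and Ndufs4 at -0.037, and with the spike-in block as well Ndufa13 was at 0.046, Ndufa6 at -0.0037, Ndufa8 at 0.068 and Ndufb9 at 0.092. With median centring Ndufa10 was at 0.22, Ndufa2 at 0.074, Ndufa3 at 0.19, Ndufa4 at 0.10, Ndufa7 at 0.18, Ndufa8 at 0.24, Ndufb10 at 0.021, Ndufb3 at 0.22, Ndufb5 at 0.11 and Ndufs5 at 0.22. With the mean of all probe sets Ndufb2 was at -0.060, Ndufb6 at -0.056 and Ndufs4 at -0.049. Among the 7 arrays that show the spike-in RNAs Ndufa3 was at 0.16, Ndufa7 at 0.064, Ndufb3 at 0.094 and Ndufs5 at 0.052, and with _x_at probe sets used last Ndufs8 was at 0.013. Without any 1 array the range crossed 0 for Ndufa1 (-0.072 to 0.13), Ndufa10 (-0.20 to 0.019), Ndufa3 (-0.18 to 0.034), Ndufa7 (-0.18 to 0.019), Ndufa8 (-0.069 to 0.0062), Ndufb2 (-0.070 to 0.11), Ndufb3 (-0.16 to 0.034), Ndufs4 (-0.045 to 0.14) and Ndufs5 (-0.16 to 0.0027). Fewer arrays enter the spike-in subsets and the settings that leave out 1 array, and of the other changes the cause was not tested. The subset of arrays lacking the spike-in signal, and quantile normalization with _x_at probe sets last, were chosen after seeing the data.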
